A study of Mus musculus with 24 samples.

Results

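The liver of young mice after 90 min of partial ischemia was compared with the liver of young mice after a sham operation, on 3 arrays for each group, 6 of the 24 arrays of the series. The members are the arrays whose titles name the young age with 90 min of ischemia or with the sham operation, and every one of the 26180 probe sets was tested. The 90 min group comes from mice aged 4 to 5 weeks whose liver had part of its blood supply closed for 90 min, and the sham group from mice of the same age that were operated on without ischemia. Young liver after 30 and 60 min, and adult liver (12 to 14 months) after 90 min of ischemia or a sham operation, each on 3 arrays, serve as a frame. The design text counts 12 young mice, as many as there are young arrays. RNA came from the median and left lobes and was measured on 3' expression arrays made by Affymetrix, so each value is a mixture of all cell types of a lobe. The titles write the time as 90/0, and the labels do not say what the number after the slash stands for.

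Hepatic ischemia cuts the supply of oxygen and nutrients to hepatocytes and to the cells that line or wrap the sinusoids, the capillaries of the liver. Stellate cells wrap the sinusoids, store vitamin A and contract in response to endothelins, Kupffer cells are the resident macrophages of the sinusoidal wall, and sinusoidal endothelial cells form the fenestrated lining between blood and hepatocytes. Loss of ATP activates the energy sensor AMPK, and early response factors of the Fos, Jun and Egr families are known to appear soon after many kinds of tissue stress.

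Each young value is a deposited ratio whose denominator is the young sham mean (3 arrays), and adult values are ratios to the adult sham mean, so that 1 is the sham level of a probe set, and no array brightness is kept. Whether a marker is present in the tissue at all therefore cannot be read from them, and the precision of a value is limited by the 3 arrays in its group. Median ratios were 0.977 to 0.994 on the 90 min arrays and 0.980 to 1.02 on the sham arrays, and no pair of these 6 arrays had an identical value. Young sham replicate 3 stood apart from its group. Its log2 ratios differed from those of sham replicates 1 and 2 with an SD over probe sets of 0.315 and 0.297. Between replicates 1 and 2 this SD was 0.184. From the 90 min arrays sham replicate 3 differed with an SD of 0.310, 0.305 and 0.328, so over all probe sets it was not nearer to them. The 90 min arrays were uneven too. Their replicate 3 differed from 90 min replicates 1 and 2 with an SD of 0.246 and 0.274, and from sham replicate 1 with 0.232. The code in the title of sham replicate 3 has 1 as its second number, where the other young sham arrays have 5 and the 90 min arrays have 2. The labels do not say what this number is. Its clock genes lay with those of the ischemia arrays. The first part of its title code is that of 30 min replicates 2 and 3. In all 29 probe sets passing below, it lay nearer the mean of sham replicates 1 and 2 than the 90 min mean. The choice of these probe sets from the same arrays favours this. Whether the array is what its label says could not be settled from the files, and it enters the sham mean behind every young ratio. Dbp, a clock output factor, had ratios of 0.134, 0.111 and 0.102 after 90 min, against 0.939, 1.93 and 0.130 in sham liver. Arntl (Bmal1), the positive arm of the clock, had ratios of 1.56, 1.74 and 1.53 after 90 min, against 0.597, 0.573 and 1.83 in sham liver. In both genes the 90 min arrays and sham replicate 3 fell on one side and sham replicates 1 and 2 on the other.

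**Figure D1:**
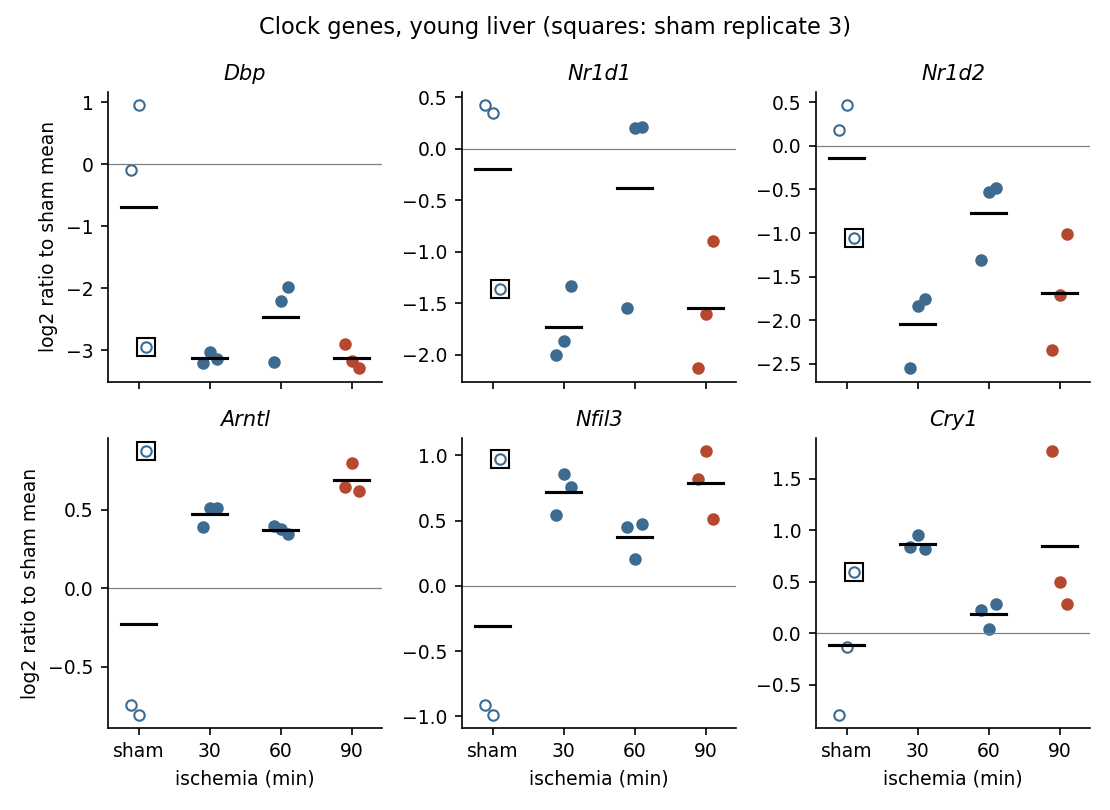
Log2 ratio to the young sham mean (y axis, its own scale in each panel) of 6 clock genes on the 12 young arrays, by ischemia time (x axis, sham at the low end). Points are arrays, black bars are means of 3 arrays, red points are 90 min arrays and squares mark sham replicate 3. That array is the highest or the lowest of the sham arrays in all 6 panels, and for Cry1 the sham arrays are about evenly spread.

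Nr1d1 and Nr1d2, the repressors known as REV-ERB alpha and beta, showed the same arrangement. Nr1d1 had ratios of 0.228, 0.330 and 0.537 after 90 min, against 1.34, 1.27 and 0.389 in sham liver, and Nr1d2 had 0.198, 0.306 and 0.494 after 90 min, against 1.14, 1.38 and 0.481 in sham liver. Nfil3, a repressor of clock output genes, stood at 1.77, 2.04 and 1.43 after 90 min, against 0.532, 0.505 and 1.96 in sham liver. Cry1 stood at 3.41, 1.41 and 1.22 after 90 min, against 0.578, 0.911 and 1.51 in sham liver. The 90 min arrays overlap the sham arrays in each of these genes only through sham replicate 3. Of 20 measured clock genes, 0 passed, with adjusted p from 0.185 (Nr1d2) upward among these 6, and without sham replicate 3 the adjusted p was 0.0563 for Nfil3, 0.0598 for Arntl and 0.0815 for Nr1d2. The calls of named genes below are therefore also given without sham replicate 3 where that changes them, and so are several list medians.

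A probe set passed at an adjusted p under 0.05 in limma (moderated test over all 24 arrays, Benjamini-Hochberg over 26180 probe sets, two-sided). Of 26180 probe sets 29 passed (0.111%), 12 higher (0.0458%) and 17 lower (0.0649%) after 90 min, and 2330 (8.90%) had an unadjusted p under 0.05. The 25 passing probe sets that have a gene symbol belong to 23 genes, 8 that rose and 15 that fell. Centring every array at its own median gave 63 higher and 27 lower, that is 70.0% higher in place of 41.4%, and with log2(ratio + 0.1) it was 57 higher and 24 lower. The 90 min and sham arrays did not overlap in any of the 29, against 13.6% of all probe sets, and all 29 kept their direction under each alternative fit in which they were tested, which their choice from these same arrays largely fixes. The calls themselves were fragile: without sham replicate 1, 2 or 3, 1, 2 and 15 of the 29 still passed, and without 90 min replicate 1, 2 or 3, 5, 1 and 26 did. The first part of the title code is shared by sham replicate 1 with 90 min replicate 2 and by sham replicate 2 with 90 min replicate 3, and with it as a block 4 of the 29 passed, those of Ednrb (limma adjusted p = 0.0200), Chka (0.0220) and Daam1 (0.0250 for both probe sets). Among the 29, the probe set of Ednrb alone passed whichever of the 6 arrays was omitted. Those fits kept the other arrays of the series, and with the 6 arrays alone 0 probe sets passed, Ednrb included. Of all probe sets, 54.1% were below 0 and 45.9% above 0.

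**Figure D2:**
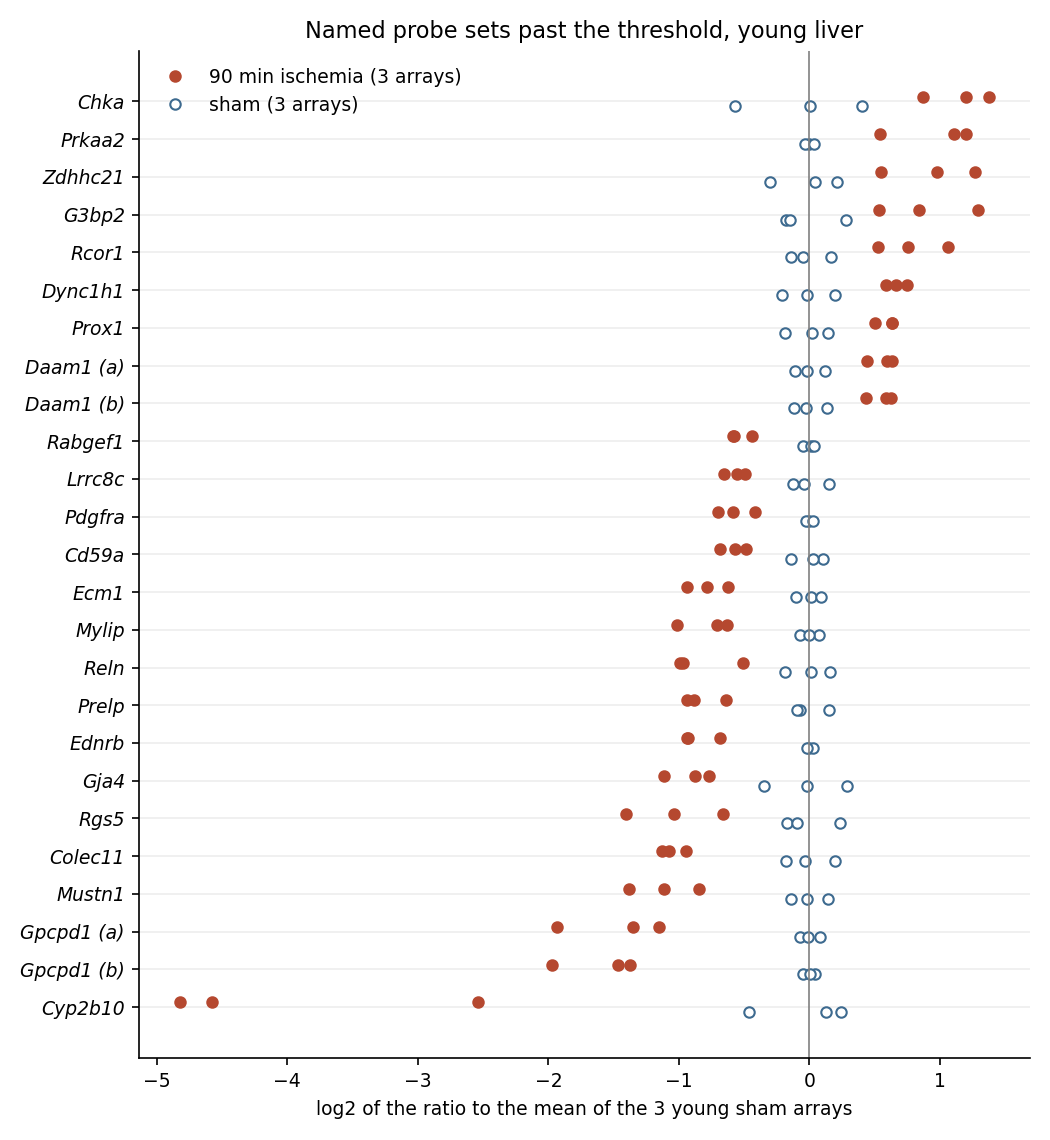
Log2 ratio to the young sham mean (x axis) on each of the 6 arrays for the 25 passing probe sets that have a symbol (y axis, largest rise at the top; a and b mark different probe sets of one gene). Filled red points are the 3 arrays after 90 min and open blue points the 3 sham arrays, and the groups do not overlap in any row.

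**Figure D3:**
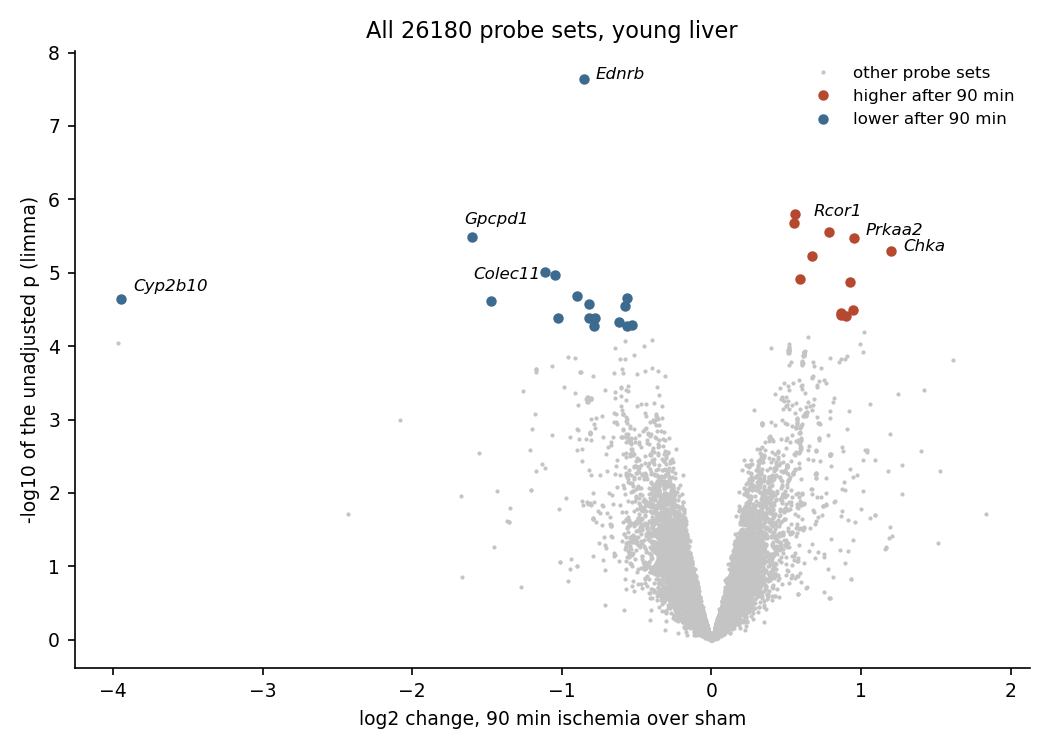
Log2 change, 90 min over sham (x axis), against -log10 of the unadjusted limma p (y axis) for all 26180 probe sets. The 29 passing probe sets are coloured, Ednrb has the smallest p and Cyp2b10 the lowest value among the passing ones.

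The start regions of 4 of these genes are shown. Ednrb has the smallest p, Reln is among the genes most correlated with it over the young arrays, and Chka is the largest named rise. Ecm1 was picked for the motif matches in its window, so those matches are no result. The windows run from 250 bases before to 50 bases after the annotated start in RefSeq (mouse build GRCm38.p6), 5' to 3' on the gene's strand, at chr14:103843652-103843951 (minus strand) for Ednrb, chr5:22344656-22344955 (minus) for Reln, chr3:95739520-95739819 (minus) for Ecm1 and chr19:3851523-3851822 (plus) for Chka. Capitals mark any match, on either strand, to ACGTG (the core of the hypoxia-inducible factor element), CACGTG (an E-box, which also contains the letters of the hypoxia core), TGACTCA (the AP-1 element) or TATAAA (the TATA box).
Ednrb: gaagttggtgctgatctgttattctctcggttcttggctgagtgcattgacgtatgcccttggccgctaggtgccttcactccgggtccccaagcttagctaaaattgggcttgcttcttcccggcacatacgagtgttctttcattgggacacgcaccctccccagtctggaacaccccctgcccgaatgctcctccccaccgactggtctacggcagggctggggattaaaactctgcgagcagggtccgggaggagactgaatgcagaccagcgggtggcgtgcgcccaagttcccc
Reln: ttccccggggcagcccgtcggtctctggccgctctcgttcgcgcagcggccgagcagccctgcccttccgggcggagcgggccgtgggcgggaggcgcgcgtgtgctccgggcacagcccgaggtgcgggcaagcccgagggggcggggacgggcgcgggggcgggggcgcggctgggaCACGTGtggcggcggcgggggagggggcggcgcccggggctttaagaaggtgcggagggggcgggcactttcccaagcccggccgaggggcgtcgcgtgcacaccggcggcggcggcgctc
Ecm1: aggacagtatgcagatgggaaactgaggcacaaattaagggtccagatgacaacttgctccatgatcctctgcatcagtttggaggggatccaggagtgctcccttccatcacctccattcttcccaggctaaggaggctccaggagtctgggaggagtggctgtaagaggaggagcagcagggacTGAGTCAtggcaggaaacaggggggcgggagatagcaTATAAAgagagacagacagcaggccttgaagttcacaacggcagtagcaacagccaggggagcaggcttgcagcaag
Chka: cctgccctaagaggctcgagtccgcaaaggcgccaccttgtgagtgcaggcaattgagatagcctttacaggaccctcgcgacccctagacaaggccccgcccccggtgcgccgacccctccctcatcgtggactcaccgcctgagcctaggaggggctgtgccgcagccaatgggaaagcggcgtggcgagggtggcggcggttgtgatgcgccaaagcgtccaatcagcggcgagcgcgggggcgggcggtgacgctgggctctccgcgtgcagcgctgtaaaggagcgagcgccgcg
The windows of Ednrb and Chka hold none of these letters, that of Reln holds the E-box, and that of Ecm1 holds the AP-1 letters and the TATA box. Windows were found for 22 of the 23 genes, 28 windows in all. ACGTG was in 3 of 12 windows of genes that rose and 3 of 16 of genes that fell, against 19.6% of all 32851 windows. Among the genes that rose, the windows that hold it belong to G3bp2 alone, and some of them overlap and share a match. Among those that fell, they belong to Rabgef1 (overlapping windows) and Reln. CACGTG was in 1 of 12 and 1 of 16, against 7.15% of all windows. TGACTCA was in 0 of 12 and 1 of 16, against 5.20%, and TATAAA in 1 of 12 and 2 of 16, against 13.6%. A match to these letters does not show that a factor binds there.

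Markers of hepatic stellate cells were lower after 90 min. Of 20 markers, all measured, 4 fell, 0 rose and 19 were below 0, with a median log2 change of -0.54, where the 14351 genes, taken by 1 probe set each, had a median of -0.02, with 57.6% below 0. In 15 of the 20 the 90 min arrays lay wholly below the sham arrays, against 8.25% of all probe sets and 9.50% of genes taken by 1 probe set. The list was made with earlier results of these data known and holds genes that passed, so these counts are no independent result. In lobe RNA, fewer cells of a type and less RNA per cell cannot be told apart. Colec11, a collectin of stellate cells, had ratios of 0.456, 0.475 and 0.519 after 90 min, against 0.882, 0.974 and 1.14 in sham liver, a log2 change of -1.04 ± 0.18 (SE, limma adjusted p = 0.0284). Rgs5, which damps G protein signals in pericytes, had 0.378, 0.488 and 0.633 after 90 min, against 0.886, 0.938 and 1.18 in sham liver, a change of -1.02 ± 0.20 (adjusted p = 0.0434). The 90 min arrays were spread more widely for Rgs5 than for Colec11, and replicate 3 was the nearest to sham in both. Reln encodes reelin, a secreted glycoprotein that stellate cells make in liver. It stood at 0.511, 0.504 and 0.703 after 90 min, against 1.01, 1.11 and 0.879 in sham liver, a change of -0.82 ± 0.16 (adjusted p = 0.0434). Ecm1, a secreted matrix protein, stood at 0.581, 0.521 and 0.649 after 90 min, against 1.01, 1.06 and 0.930 in sham liver, a change of -0.78 ± 0.15 (adjusted p = 0.0434).

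Among the other 16 stellate markers, which did not pass, Lum (lumican, a small proteoglycan) was at -0.96 (limma adjusted p = 0.0515), Hgf (hepatocyte growth factor) at -0.66 and Lrat, the enzyme that esterifies vitamin A for storage, at -0.63. Lrat had ratios of 0.594, 0.610 and 0.715 after 90 min, against 1.01, 0.822 and 1.17 in sham liver, so its groups did not overlap. Des (desmin) was at -0.28 and Pdgfrb, a receptor for platelet-derived growth factor, at -0.19, and the groups overlapped for Pdgfrb. The list thus holds members with changes near -1 and others near 0. Its mean log2 ratio was -0.51, -0.56 and -0.40 on the 90 min arrays, against -0.04, -0.06 and 0.08 on the sham arrays. The number of passing markers was 0, 0 and 2 without sham replicate 1, 2 or 3, and 0, 0 and 7 without 90 min replicate 1, 2 or 3, while the median stayed between -0.59 and -0.47. Without sham replicate 3 Reln and Ecm1 passed, and Colec11 and Rgs5 were at adjusted p = 0.0502 and 0.0836. It was 1 after quantile normalization, 6 with arrays centred on their median and 0 with the title code as a block, where Colec11, Rgs5, Reln and Ecm1 had adjusted p = 0.0679 to 0.0960.

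Genes of the vessel wall and of vascular tone gave the firmest call. Ednrb, the endothelin B receptor of sinusoidal endothelial and stellate cells, had ratios of 0.524, 0.521 and 0.622 after 90 min, against 0.997, 1.02 and 0.985 in sham liver. It was 1.81-fold lower after 90 min, a log2 change of -0.85 ± 0.10 (limma adjusted p = 0.000597). The adjusted p stayed between 0.000496 and 0.0124 with any 1 array left out. Ednrb did not pass when the 90 min and sham arrays were fitted alone. Between the arrays that share the first part of their code, the 90 min value differed from sham by -0.94 and -0.71. Ednra, the endothelin A receptor, was at -0.20 and did not pass (adjusted p = 0.554). Gja4, an arterial connexin that forms gap junctions between endothelial cells, stood at 0.586, 0.463 and 0.545 after 90 min, against 0.787, 1.22 and 0.990 in sham liver, a change of -0.90 ± 0.16 (adjusted p = 0.0393). Mustn1, a nuclear protein known from muscle and bone development, stood at 0.384, 0.556 and 0.463 after 90 min, against 0.988, 0.909 and 1.10 in sham liver, a change of -1.11 ± 0.19 (adjusted p = 0.0284). Both groups were clear of each other in each of these genes, with the narrowest sham spread in Ednrb. Gja4 lost the call without sham replicate 1 or 2 or 90 min replicate 1 or 2 (adjusted p = 0.0525 to 0.195), and so did Mustn1 (0.0565 to 0.127). With the title code as a block Gja4 was at adjusted p = 0.0679 and Mustn1 at 0.0960.

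Of 21 measured genes of endothelins, connexins and vascular tone, 2 fell, 0 rose and 18 were below 0, with a median of -0.15. Of all probe sets 0.0649% fell, and of genes taken by 1 probe set 57.6% were below 0. The same shares apply to each list below, and every list was made with earlier results of these data known. Gja1, another connexin, was at -0.90, and Gucy1b1 and Gucy1a1, the subunits of the nitric oxide receptor guanylate cyclase, were at -0.61 (limma adjusted p = 0.0518) and -0.41. Ece1, the endothelin-converting enzyme, was at 0.43 with 90 min arrays wholly above sham, and none of these 4 passed. Without sham replicate 1 or 2 or 90 min replicate 1 or 2, Ednrb alone of this list passed. Markers of larger vessels and smooth muscle numbered 11, of which 7 were below 0, with a median of -0.07. Without sham replicate 3, 5 were below 0 and the median was 0.004. Of the 11 markers 2 fell, Mustn1 and Gja4. Apart from these 2 genes, the list reached from -0.16 (Hey1) to 0.14 (Vwf).

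Of 21 small leucine-rich proteoglycans and related matrix genes 2 fell, Prelp and Ecm1, 0 rose and 17 were below 0, with a median of -0.22, which was -0.14 without 90 min replicate 1; Ecm1, Lum and Dcn (decorin) also stand in the stellate list. Prelp, a proteoglycan that anchors basement membranes, had ratios of 0.522, 0.541 and 0.644 after 90 min, against 1.11, 0.951 and 0.937 in sham liver, a change of -0.82 ± 0.15 (limma adjusted p = 0.0406). Bgn (biglycan) was at -0.58 (adjusted p = 0.0515) and Dcn at -0.57, and in both the 90 min arrays lay below every sham array. Prelp was also the 1 of 11 portal fibroblast markers that fell, and the median of that list was -0.08 (0.009 without sham replicate 3). Of 19 collagens and lysyl oxidases 0 passed, with Col14a1 at -0.64, Col1a1 at 0.51 and a median of -0.09. Pdgfra, a receptor for platelet-derived growth factor on fibroblasts and other mesenchymal cells, had ratios of 0.665, 0.617 and 0.750 after 90 min, against 0.998, 0.981 and 1.02 in sham liver, a change of -0.57 ± 0.10 (adjusted p = 0.0393). Prelp passed without sham replicate 3 or 90 min replicate 3 and Pdgfra without 90 min replicate 3, and each lost the call without any other 1 array (adjusted p up to 0.191 for Prelp and 0.205 for Pdgfra). Both were at adjusted p = 0.0960 with the title code as a block.

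Over the 12 young arrays, the 5 named genes whose log2 ratios correlated most highly with those of Ednrb were Dennd2a (Pearson r = 0.942), Reln (0.936), Prelp (0.935), Pdgfra (0.932) and Bgn (0.932). These arrays share 1 set of sham arrays and fall into 4 groups, so the values describe the order of the groups as much as that of single arrays. They also include the arrays by which the passing genes were chosen, which favours high values for Reln, Prelp and Pdgfra. Dennd2a, a Rab exchange factor, was at -0.35 after 90 min (limma adjusted p = 0.0873).

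Markers of the other sinusoidal cells were mostly below 0, without a passing member. Of 14 Kupffer cell markers 0 passed and 12 were below 0, with a median of -0.33. Without sham replicate 3, 9 were below 0, with a median of -0.26. Cd163, the haptoglobin-hemoglobin scavenger receptor, was at -0.88 (limma adjusted p = 0.149), with ratios of 0.510, 0.597 and 0.519 after 90 min, against 1.07, 1.02 and 0.909 in sham liver. Cd5l was at -0.79, Vsig4, a complement receptor, at -0.77 and Lyz2 (lysozyme) at -0.70, while Clec4f, a lectin largely restricted to Kupffer cells, was at -0.06, and at 0.17 without sham replicate 3. The list mean was -0.66, -0.28 and -0.21 on the 90 min arrays, against -0.16, -0.15 and 0.25 on the sham arrays. The lowest value belongs to 90 min replicate 1 and the highest to sham replicate 3. Of 15 sinusoidal endothelial markers 0 passed and 14 were below 0, with a median of -0.29 (-0.19 without sham replicate 2), Lyve1 at -0.82, Pecam1 at -0.53, Oit3 at -0.52 and the scavenger receptor Stab2 at -0.45. Of 16 hepatocyte markers 0 passed and 15 were below 0, with a median of -0.09. Without 90 min replicate 3, 9 were below 0, with a median of -0.02. Hnf4a, a master factor of hepatocyte genes, was the lowest, at -0.36. The hepatocyte mean was 0.01, -0.06 and -0.34 on the 90 min arrays, against -0.10, 0.04 and 0.05 on the sham arrays, so that 90 min replicate 3 was the low one. Lists of neutrophils (10 genes), T and NK cells (14), B cells (6), bile duct cells (7) and red cell precursors (7) had medians between -0.11 and 0.09 with 0 passing. The share of these changes of cell markers in the single-gene results was not tested.

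**Figure D4:**
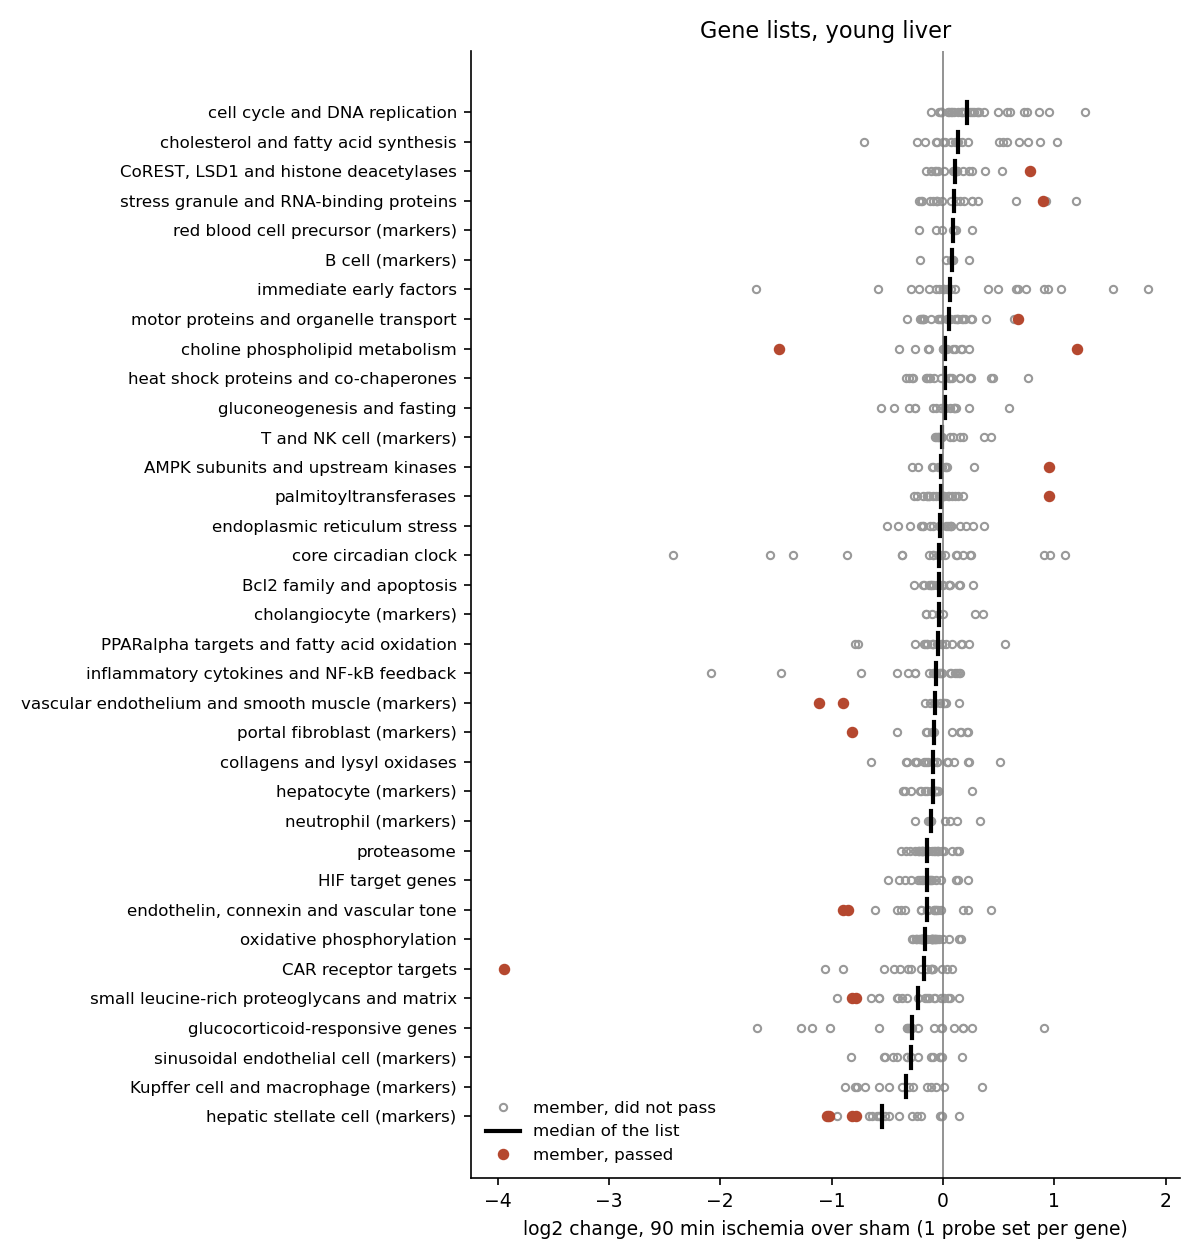
Log2 change, 90 min over sham (x axis), of each measured member of 35 gene lists (y axis, highest median at the top), 1 probe set per gene. Open grey circles did not pass, red points passed and black ticks are list medians; the stellate list has the lowest median, -0.54.

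Cyp2b10 had the lowest log2 change of the passing probe sets. This cytochrome P450 is the classic target of the nuclear receptor CAR in mouse liver. Its ratios were 0.0353, 0.172 and 0.0420 after 90 min, against 1.18, 1.09 and 0.726 in sham liver, a 15.4-fold lower value after 90 min and a log2 change of -3.95 ± 0.73 (limma adjusted p = 0.0393). Replicate 2 was the highest of the 90 min arrays, yet far below every sham array. The call held without sham replicate 3 (adjusted p = 0.0369) and was lost without any other 1 array (adjusted p = 0.0565 to 0.172), with the change between -4.67 and -3.52. With the title code as a block the adjusted p was 0.0679, and the pairs of arrays that share a code differed by -2.78 and -4.70. Of 18 CAR targets 1 fell, 0 rose and 16 were below 0, with a median of -0.17. Por, the reductase that passes electrons to cytochromes P450, stood at 0.518, 0.489 and 0.401 after 90 min, against 0.972, 1.29 and 0.740 in sham liver, a change of -1.06 ± 0.23 (adjusted p = 0.0541), and it passed without sham replicate 3 (-1.26, adjusted p = 0.0369). Cyp3a13 was at -0.53 and Cyp2c29 at -0.39.

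The 2 genes that changed in choline phospholipid metabolism went in opposite directions. Gpcpd1 encodes an enzyme that splits glycerophosphocholine, a breakdown product of phosphatidylcholine. Its first probe set (NM_028802) had ratios of 0.255, 0.386 and 0.363 after 90 min, against 0.969, 1.03 and 1.00 in sham liver, a change of -1.60 ± 0.25 (limma adjusted p = 0.0149), and the second (NM_027096) a change of -1.48 ± 0.27 (adjusted p = 0.0401). The probe sets agree in order, with replicate 1 the lowest of the 90 min arrays in both. Chka, choline kinase alpha, which starts the synthesis of phosphatidylcholine from choline, had ratios of 2.29, 2.60 and 1.83 after 90 min, against 1.00, 0.674 and 1.32 in sham liver. It rose 2.30-fold, a log2 change of 1.20 ± 0.20 (adjusted p = 0.0190), and by 1.43 without sham replicate 3 (adjusted p = 0.00558). Without any 1 of sham replicates 1 and 2 and 90 min replicates 1 and 2, neither Chka nor a probe set of Gpcpd1 passed (adjusted p = 0.0551 to 0.197), and without sham replicate 3 the second Gpcpd1 probe set was at 0.0557. With the title code as a block Chka passed (1.32, adjusted p = 0.0220) and the Gpcpd1 probe sets were at adjusted p = 0.0659 and 0.0679. Of the other 13 measured genes of the list 0 passed, with Pemt, which makes phosphatidylcholine by methylation, at -0.39, and the list median was 0.02.

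Prkaa2, the alpha 2 catalytic subunit of AMPK, rose. Its ratios were 2.16, 2.29 and 1.46 after 90 min, against 0.999, 0.975 and 1.03 in sham liver, a log2 change of 0.95 ± 0.15 (limma adjusted p = 0.0149). The sham arrays agreed closely, and 90 min replicate 3 was the lowest of its group. The adjusted p was 0.0369 without sham replicate 3 and 0.000991 without 90 min replicate 3, and 0.0596 to 0.120 without any other 1 array, and it was 0.0659 with the title code as a block. Of 12 measured AMPK subunits and upstream kinases 1 rose, 0 fell and the median was -0.02. Prkaa1, the other catalytic subunit, was at 0.03 (adjusted p = 0.988), with a sign that turned without some single arrays.

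The other named rises come from different processes. Daam1, a formin that assembles actin filaments downstream of Wnt, rose by 0.56 ± 0.08 and 0.55 ± 0.09 in its 2 probe sets (limma adjusted p = 0.0149 each), whose values are nearly equal on every array. Rcor1 (CoREST), the scaffold of a histone demethylase and deacetylase complex, had ratios of 1.68, 2.08 and 1.44 after 90 min, against 0.967, 0.908 and 1.12 in sham liver, a change of 0.78 ± 0.12 (adjusted p = 0.0149). Daam1 and Rcor1 passed without sham replicate 3 and without 90 min replicate 1 or 3. They lost the call without sham replicate 1 or 2 or 90 min replicate 2 (adjusted p = 0.0711 to 0.105). Dync1h1, the heavy chain of the dynein motor, rose by 0.68 ± 0.11 (adjusted p = 0.0194), while Prox1, a transcription factor that hepatocytes share with lymphatic vessels, rose by 0.59 ± 0.10 (adjusted p = 0.0287). Dync1h1 lost the call without sham replicate 1 or 90 min replicate 1 or 2 (adjusted p up to 0.120), and Prox1 without any 1 sham array or 90 min replicate 2 (adjusted p up to 0.136). With the title code as a block Daam1 passed (adjusted p = 0.0250), Rcor1 was at 0.0597 and Dync1h1 and Prox1 at 0.0679.

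G3bp2, an RNA-binding protein of stress granules, had ratios of 1.79, 2.44 and 1.45 after 90 min, against 0.882, 0.904 and 1.21 in sham liver, a log2 change of 0.90 ± 0.17 (limma adjusted p = 0.0434). Its paralog G3bp1 was at 0.19 (adjusted p = 0.883). Zdhhc21, an enzyme that attaches palmitate to proteins, had ratios of 1.97, 2.41 and 1.47 after 90 min, against 1.16, 1.03 and 0.810 in sham liver, a change of 0.95 ± 0.18 (adjusted p = 0.0434). In both genes replicate 2 was the highest and replicate 3 the lowest of the 90 min arrays. Both lost the call without sham replicate 1 or 2 or 90 min replicate 1 or 2, and Zdhhc21 also without sham replicate 3 (adjusted p up to 0.244). G3bp2 was at adjusted p = 0.0960 and Zdhhc21 at 0.0679 with the title code as a block. G3bp2, Zdhhc21, Rcor1 and Dync1h1 were each the only passing member of their list. The median was 0.10 for 20 stress granule and RNA-binding genes and -0.02 for 21 palmitoylation genes. It was 0.11 for 19 genes of CoREST and histone deacetylases and 0.05 for 29 of motors and organelle transport. These lists were made with earlier results of these data known, so a passing member is no independent result. Ddx6, an RNA helicase, was at 1.19 (adjusted p = 0.140) and Hdac2 at 0.53, and Kif1b, a kinesin, was at 0.64 in one probe set (adjusted p = 0.0512) and at -0.08 in another.

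The remaining named falls were smaller. Mylip, a ubiquitin ligase that directs the LDL receptor to degradation, changed by -0.78 ± 0.15 (limma adjusted p = 0.0480). Cd59a, an inhibitor of the complement membrane attack complex, changed by -0.58 ± 0.11 (adjusted p = 0.0412). Lrrc8c, a subunit of volume-regulated anion channels, changed by -0.56 ± 0.11, and Rabgef1, an exchange factor for Rab5 on endosomes, by -0.53 ± 0.10 (adjusted p = 0.0480 each). Their mean ratios after 90 min lay between 0.584 for Mylip and 0.692 for Rabgef1, against 1 in sham liver. Mylip, Cd59a and Lrrc8c passed only without 90 min replicate 3 among the fits that left out 1 array (adjusted p up to 0.281), and Rabgef1 in none of them (adjusted p up to 0.197). These 4 genes had adjusted p = 0.0912 to 0.114 with the title code as a block. Of the 4 passing probe sets without a symbol, XM_001001367 fell by 0.61 on the log2 scale, and XM_001000405, XM_991925 and XM_001001182 changed by 0.87, 0.87 and 0.93. The values of XM_001000405 and XM_991925 were nearly equal on each array, and all 4 missed the threshold without sham replicate 3 (adjusted p = 0.0568 to 0.0815).

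Just outside the threshold, at an adjusted p of 0.0512 in limma, lay, among others, Crebbp (a histone acetyltransferase, 0.99), Tcf7l2 (0.40), Dnaja3 (-0.40), Osmr (the oncostatin M receptor, -0.64) and an unnamed probe set, NM_009998 (-3.97). Without sham replicate 3 Osmr passed, at -0.76 (adjusted p = 0.0369). Just inside the threshold, at 0.0480, were Mylip, Lrrc8c and Rabgef1.

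Among early response genes Fos and Jun were above sham on all 3 arrays, without passing. Of 24 immediate early factors 0 passed, 16 were above 0 and the median was 0.06, and in 8 of them the 90 min arrays lay wholly above sham, against 5.32% of all probe sets. Fos had ratios of 5.58, 1.93 and 3.38 after 90 min, against 0.633, 0.802 and 1.56 in sham liver, a log2 value of 1.84 ± 0.72 (limma adjusted p = 0.404). Jun had 3.82, 1.92 and 2.83 after 90 min, against 0.769, 1.46 and 0.768 in sham liver, a value of 1.53 ± 0.49 (adjusted p = 0.230). In both genes replicate 2 was the lowest of the 90 min arrays and still above every sham array. Egr1 was at 1.06, Ier2 at 0.94 and Klf10 at -1.68. Of 22 cytokine and NF-kB feedback genes 0 passed, with the neutrophil chemokine Cxcl1 at -2.08 ± 0.54 (adjusted p = 0.117) and Vcam1 at -0.73. Of 20 glucocorticoid-responsive genes 0 passed and 15 were below 0, with a median of -0.28 (-0.16 without 90 min replicate 3) and Fkbp5, a glucocorticoid-induced co-chaperone, at -1.18. Of 20 heat shock genes 0 passed, with Hspa1a at 0.76 and a median of 0.02, which was 0.20 without sham replicate 3 (4 below 0) and -0.14 without sham replicate 1 (13 below 0). Of 19 targets of the hypoxia-inducible factors 0 passed, with a median of -0.14, Hmox1 (heme oxygenase 1) at -0.49 and Vegfa at 0.23.

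Growth and lipid synthesis genes differed between the 90 min arrays. Of 30 cell cycle and DNA replication genes 0 passed and 25 were above 0, with a median of 0.22 (0.39 without 90 min replicate 3). Their mean was 0.39, 0.46 and 0.00 on the 90 min arrays, against -0.09, -0.18 and 0.18 on the sham arrays. Cdc20, an activator of the anaphase-promoting complex, was at 1.27 ± 0.45 (limma adjusted p = 0.315), with the 90 min arrays wholly above sham. Mcm6, a subunit of the replicative helicase, had 2.33, 2.20 and 0.841 after 90 min, against 0.659, 0.491 and 1.85 in sham liver. For Mcm6 replicate 3 of each group lay among the values of the other group. Of 20 genes of cholesterol and fatty acid synthesis 0 passed, and the mean was 0.43, 0.29 and -0.19 on the 90 min arrays, against -0.13, -0.38 and 0.35 on the sham arrays. Fasn (fatty acid synthase) had 2.30, 2.16 and 1.21 after 90 min, against 1.01, 0.827 and 1.16 in sham liver. The median of this list was 0.13 with all arrays, 0.36 without sham replicate 3, 0.33 without 90 min replicate 3 and -0.04 without sham replicate 2, with 0, 1, 3 and 0 passing genes.

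Of 37 oxidative phosphorylation genes 0 passed and 33 were below 0, with a median of -0.16, which was 0.03 without 90 min replicate 3 and -0.07 without sham replicate 3. Of 29 proteasome genes 0 passed and 25 were below 0, with a median of -0.14, which was 0.04 without sham replicate 3 and 0.00 without 90 min replicate 3. The direction of both medians therefore rests on single arrays. Of 22 targets of the fatty acid oxidation factor PPAR alpha 0 passed and 16 were below 0, with a median of -0.05. Without sham replicate 3, 11 were below 0 and the median was 0.006. The members reached from -0.79 (Cd36, whose groups overlapped) to 0.56, with Angptl4 at -0.76. Lists of the endoplasmic reticulum stress response (19 genes), the Bcl2 family and apoptosis (19) and gluconeogenesis (17) had medians between -0.04 and 0.02 and 0 passing genes. The endoplasmic reticulum stress median was 0.24 without sham replicate 3 and -0.19 without sham replicate 1.

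The shorter times and the adult liver show how the 29 passing probe sets behaved elsewhere. The 30 and 60 min comparisons use the same sham arrays as the 90 min one, so agreement among them is not independent. At 30 min 4 of the 29, belonging to 3 genes (Gpcpd1, Gja4 and Rabgef1), passed against sham, where 0.0306% of all probe sets did, and at 60 min 2 passed (Gja4 lower and Prox1 higher), where 0.00764% did, 0.00382% in each direction. The change was smaller in size at 30 min in 24 of the 29 and at 60 min in 26, which the choice of these probe sets by their 90 min change favours. Ednrb had mean log2 changes of -0.34, -0.56 and -0.85 at 30, 60 and 90 min, with ratios of 0.746, 0.823 and 0.796 at 30 min and 0.648, 0.693 and 0.698 at 60 min, and the ratios at the 3 times did not overlap. Rgs5 was at -0.02, -0.67 and -1.02, Reln at -0.18, -0.61 and -0.82 and Prelp at -0.15, -0.54 and -0.82. Gja4 was at -1.14, -1.15 and -0.90, and Cyp2b10 at -4.01, -3.69 and -3.95, both already low at 30 min. Chka was at 0.68, 0.60 and 1.20, and Prkaa2 at 0.64, 0.79 and 0.95.

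**Figure D5:**
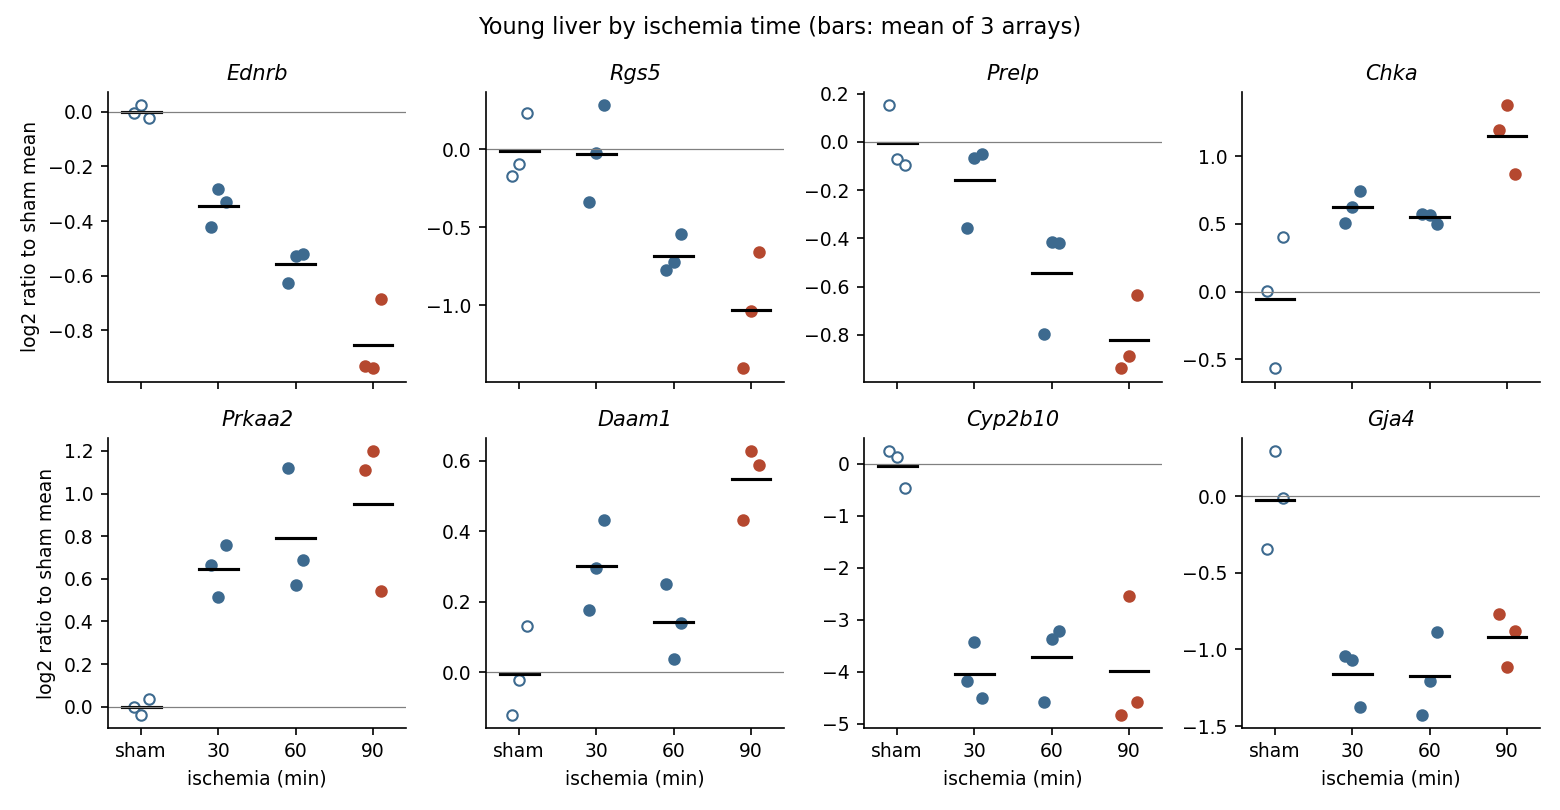
Log2 ratio to the young sham mean (y axis, its own scale in each panel) of 8 genes that passed at 90 min, on the 12 young arrays by ischemia time (x axis, sham at the low end). Points are arrays, black bars are means of 3 arrays and red points are 90 min arrays; Ednrb is lower at each longer time, while Cyp2b10 and Gja4 are as low at 30 min as at 90 min.

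Tested directly in limma, no single probe set passed for 90 min against the shorter times. Against 60 min 0 of 26180 passed (0.00%), with 2511 (9.59%) at an unadjusted p under 0.05, and against 30 min 0 passed, with 1480 (5.65%). Ednrb had the smallest p against 30 min, a difference of -0.51 ± 0.10 (adjusted p = 0.469), followed by Rgs5 at -1.0 ± 0.20 (adjusted p = 0.469). Daam1 was 0.41 ± 0.08 above 60 min (adjusted p = 0.127). The count against 60 min depended on single arrays and on weights: it was 45 without 60 min replicate 2, 23 without 90 min replicate 3 and 77 when the arrays were weighted.

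After 90 min in adult liver 1323 probe sets (5.05%) passed against adult sham, 272 higher (1.04%) and 1051 lower (4.01%). Of the 29 probe sets that passed in young liver, 8 passed there, those of Cyp2b10, Colec11, Rgs5, Gja4, Cd59a and Prkaa2 and 2 without a symbol. The direction was shared in 28 of the 29, and the change was smaller in size in adult liver in all 29, which were chosen for their change in young liver. Pdgfra was the exception in direction, at -0.57 in young and 0.09 in adult liver. Ednrb was at -0.85 in young and -0.16 in adult liver, where its ratios were 0.837, 0.941 and 0.892 after 90 min, against 0.878, 1.01 and 1.11 in adult sham liver. Chka was at 1.20 in young and 0.13 in adult liver. Tested as young minus adult response, 0 of 26180 probe sets passed in limma, with 2949 (11.3%) at an unadjusted p under 0.05. The difference was -0.69 ± 0.14 for Ednrb, 1.08 ± 0.28 for Chka and -0.88 ± 0.16 for Islr, a secreted protein of mesenchymal cells that had the smallest p (adjusted p = 0.421 each). Weighting the arrays gave 1580 passing probe sets, and each other alternative fit gave 0. Of 14 Kupffer cell markers 0 passed in young and 12 fell in adult liver, with medians of -0.33 and -1.07. Of 20 stellate markers 4 fell in young and 2 in adult liver, with medians of -0.54 and -0.17.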

How the data were processed

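RNA of 24 mouse livers was measured on Affymetrix 3' arrays. Per the submitters' processing notes the authors used RMA (no version given). What was deposited is a table of linear ratios, in which for each of 26180 probe sets the mean ratio of the 3 sham arrays of an age is 1 (within 2e-07), so brightness and differences between the ages at sham are not kept. Probe sets carry RefSeq accessions; 15228 matched 1 symbol in the RefSeq table (GRCm38.p6) and 10952 none.

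Groups came from the sample titles. A linear model of log2 ratios in limma 3.58.1 (R 4.3.3) had 8 group means over 24 arrays, 16 residual degrees of freedom and a prior of 4.65. Adjusted p-values are Benjamini-Hochberg over all probe sets, and errors are standard errors unless SD is written. On simulated data with 200 changed probe sets the fit was checked. Replicate numbers are in deposition order and pair nothing.

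The members and gene lists were chosen with earlier results of these data known. Named are all passing probe sets with a symbol, the 6 or fewer members of each list that changed most (1 probe set per gene, by accession), the 5 most like Ednrb, and further genes chosen after their values were seen, among them Ednra, Lrat, Des, Pdgfrb, Dcn, Hdac2, Clec4f, Prkaa1, G3bp1 and the genes just outside the threshold. Of 672 list genes 622 had a probe set. Alternatives were other features, scales, normalizations, sample sets, a title code block, array weights, a robust prior and each array left out. Differences within pairs of arrays that share the first part of the title code were added after the data were seen.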

Additional observations from a re-analysis of the deposited data

How the results depend on the processing

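The count of passing probe sets moved widely. The 29 (12 higher, 17 lower) became 10 (4 and 6) after quantile normalization, 90 (63 and 27) with arrays centred on their median, 81 (57 and 24) with log2(ratio + 0.1), 87 (26 and 61) with the 12 young arrays, 0 (0 and 0) with the 6 arrays of the comparison alone, where limma gave 2189 at an unadjusted p under 0.05, 4 (3 and 1) with the first part of the titles' codes as a block, and 1143 (683 and 460) with array weights, which gave sham replicate 3 a weight of 0.361. With 1 array left out it was 1 to 92 (0 to 63 higher, 1 to 29 lower). It was 26 with 1 probe set per gene, 28 with probe sets of 1 symbol and 29 with a robust prior. For 90 against 60 min the count of 0 became 77 with array weights and 0 to 45 with 1 array left out, for 90 against 30 min 4 with array weights, and for young minus adult 1580 with array weights. Of the genes named, 3 with values near 0 turned sign: Clec4f was at 0.037 after quantile normalization, 0.019 with the title code block, 0.060 with array weights and -0.19 to 0.17 with 1 array left out, Prkaa1 lay between -0.024 and 0.096 and G3bp1 between -0.097 and 0.40 with 1 array left out. The causes were not tested. Replicate numbers follow deposition order and pair nothing, so the title code was the one block fitted. With 3 arrays a group and no brightness, dim probe sets cannot be told from bright ones.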

Other observations

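Without young sham replicate 3, the library whose clock genes lie with the ischemia arrays, 72 probe sets passed in limma, 57 higher and 15 lower after 90 min. Among the named ones outside the 29 were Nrep, a regulator of transforming growth factor beta activity, at 1.94 ± 0.28 (adjusted p = 0.00664), Pnrc1, a nuclear receptor coactivator, at 1.61 ± 0.28 (adjusted p = 0.0369), Ddc, aromatic amino acid decarboxylase, at 1.38 ± 0.29 (adjusted p = 0.0469), Gclc, the limiting enzyme of glutathione synthesis, at 0.94 ± 0.20 (adjusted p = 0.0480), and Trex1, a DNA exonuclease, at -0.58 ± 0.12 (adjusted p = 0.0416). These 5 genes were chosen after their values were seen. With sham replicate 3 in the fit Nrep was at 1.42 (adjusted p = 0.0790), and its ratios were 3.66, 2.39 and 1.44 after 90 min, against 0.579, 0.631 and 1.79 in sham liver. Pnrc1 had ratios of 1.93, 2.26 and 1.49 after 90 min, against 0.618, 0.608 and 1.77 in sham liver. Both genes thus have the arrangement seen for Nfil3 and Arntl, with sham replicate 3 among the 90 min arrays, and the part of that library in these values was not tested further.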
